A study of Homo sapiens with 10 samples.

Results

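The human chorionic gonadotropin beta genes CGB8, CGB5, CGB3, CGB7, CGB2 and CGB1 were examined together with LHB, the luteinising hormone beta gene of the same cluster, and CGA, the gene of the alpha subunit that both hormones share. These 8 genes, of 58735 in the deposited table, were taken by symbol. The set was proposed because CGB8 was lower in ADC than in PBS libraries in an earlier look at these data. For that reason the difference between the groups is given for every member as a description, without a test. The libraries came from CH157-MN, an established human meningioma line. The ADC group received 100 nM hSSTR2-MMAF ADC, an antibody-drug conjugate that joins a humanised antibody against the somatostatin receptor SSTR2 to the microtubule poison MMAF, and was collected on day 3 (5 libraries). The PBS group received phosphate-buffered saline (5 libraries), and the labels state no day of collection for it. All 10 libraries come from this single cell line. RNA selected on poly-T beads was sequenced and counted per gene.

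Chorionic gonadotropin is the hormone of early pregnancy, made mainly by the syncytiotrophoblast of the placenta, where it keeps the corpus luteum producing progesterone. Its beta subunit gives the hormone its identity, and it pairs with the common alpha subunit to form the active dimer that binds the luteinising hormone receptor. The beta genes arose by duplication of an LHB-like gene in primates and carry a C-terminal extension that luteinising hormone lacks. Many non-placental tumours transcribe beta genes without the alpha gene, and the free beta subunit is used as a tumour marker.

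On GRCh38 the beta genes and LHB lie within 42881 bases of chromosome 19, and CGA lies on chromosome 6. In the GENCODE 29 transcripts, the copies could hardly be told apart by their coding sequence, so the bases that separate them are shown here. The coding part of CGB5 had 0 differences from that of CGB8 over 495 bases. CGB3 had 1 difference (T450C, CGB8 base first, counted from the A of the start codon), and CGB7 had 5 (A65G, C70A, C71T, A410C and G474A). Coding bases 61 to 120 lie in the middle exon, at chr19:49048268-49048327 for CGB8 (minus strand), chr19:49044622-49044681 for CGB5 (plus strand), chr19:49023499-49023558 for CGB3, chr19:49054904-49054963 for CGB7 and chr19:49016610-49016669 for LHB (all minus strand). Capitals mark the 7 positions at which at least 1 of the genes shown differs from the others.
CGB8: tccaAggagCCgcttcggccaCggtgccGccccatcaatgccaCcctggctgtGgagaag
CGB5: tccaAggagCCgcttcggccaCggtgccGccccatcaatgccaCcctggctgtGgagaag
CGB3: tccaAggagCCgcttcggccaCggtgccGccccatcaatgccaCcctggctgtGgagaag
CGB7: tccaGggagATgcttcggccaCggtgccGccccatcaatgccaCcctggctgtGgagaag
LHB: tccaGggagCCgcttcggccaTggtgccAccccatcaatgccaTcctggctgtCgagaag

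Coding bases 400 to 495 encode much of the C-terminal extension. They lie in the last exon, at chr19:49047658-49047753 for CGB8, chr19:49045196-49045291 for CGB5, chr19:49022889-49022984 for CGB3 and chr19:49054294-49054389 for CGB7. Capitals mark the 3 positions that differ among these copies, and only CGB3 and CGB7 carry a base of their own there.
CGB8: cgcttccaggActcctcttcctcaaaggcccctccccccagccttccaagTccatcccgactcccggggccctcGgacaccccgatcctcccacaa
CGB5: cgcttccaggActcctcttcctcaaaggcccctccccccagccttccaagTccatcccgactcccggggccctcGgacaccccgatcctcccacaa
CGB3: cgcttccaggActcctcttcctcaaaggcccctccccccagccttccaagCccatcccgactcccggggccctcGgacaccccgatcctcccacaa
CGB7: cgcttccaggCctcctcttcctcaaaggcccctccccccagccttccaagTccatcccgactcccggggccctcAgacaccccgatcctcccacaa

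Upstream of the start site the 3 main copies were also close. Over 239 aligned bases, the RefSeq promoter (GRCh38.p14) of CGB3 had 5 differences from that of CGB8 and the promoter of CGB5 had 7. The 250 bases before each RefSeq start are shown because these genes are set side by side below. They lie at chr19:49049112-49049361 for CGB8 (minus strand), chr19:49043598-49043847 for CGB5 (plus strand) and chr19:49024334-49024583 for CGB3 (minus strand). Capitals mark the 10 alignment columns at which the 3 promoters are not identical, gaps included.
CGB8: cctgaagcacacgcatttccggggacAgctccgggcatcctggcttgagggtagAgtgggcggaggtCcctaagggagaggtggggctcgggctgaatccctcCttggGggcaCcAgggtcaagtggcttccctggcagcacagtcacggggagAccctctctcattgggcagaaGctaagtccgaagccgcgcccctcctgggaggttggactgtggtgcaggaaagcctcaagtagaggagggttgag
CGB5: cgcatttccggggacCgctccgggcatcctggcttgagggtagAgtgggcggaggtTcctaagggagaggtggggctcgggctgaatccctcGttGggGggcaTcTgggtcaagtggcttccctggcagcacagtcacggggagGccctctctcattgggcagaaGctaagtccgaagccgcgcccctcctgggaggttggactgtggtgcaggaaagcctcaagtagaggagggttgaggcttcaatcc
CGB3: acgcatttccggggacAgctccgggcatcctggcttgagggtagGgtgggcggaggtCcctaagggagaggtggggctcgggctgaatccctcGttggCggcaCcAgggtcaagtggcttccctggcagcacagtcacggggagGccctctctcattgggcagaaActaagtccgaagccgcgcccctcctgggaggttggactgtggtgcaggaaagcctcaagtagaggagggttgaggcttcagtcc

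Promoters of all 8 members were found in the RefSeq table, and 3 motifs were searched on both strands of the 250 bases before the start. TGACGTCA, the palindromic cAMP response element, matched in CGA at -142 and -124, in CGB1 at -53 and in CGB2 at -31, and in no other member. Of 35116 RefSeq promoters, 1.65% held it. GGGCGG, the core of an SP1 site, matched once in each of CGB8, CGB5, CGB3 and LHB, and at 2 places in CGB7, against 42.6% of all promoters with a match. GCCNNNGGC, a form of the AP-2 site, matched in CGB7 alone, against 19.8% of all promoters. In CGB7 the GCCNNNGGC match at -98 overlapped the GGGCGG match at -93. These matches are letters in a window and were not tested as binding sites. The stretches with the cAMP response element are shown with the motif in capitals, from chr6:87095208-87095263 (minus strand), chr19:49031844-49031881 (plus strand) and chr19:49036926-49036963 (minus strand).
CGA: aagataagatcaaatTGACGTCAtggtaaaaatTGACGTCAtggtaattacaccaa
CGB2: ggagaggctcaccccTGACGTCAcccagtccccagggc
CGB1: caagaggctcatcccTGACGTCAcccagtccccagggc

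How far counts can be assigned to a copy was measured as the share of transcript windows found in no other gene, leaving out 3 annotated genes that overlap the members (AC008687.1, AC008687.7 and AC008687.8). With windows of 50 bases it was 17.2% for CGB8, 14.0% for CGB5 and 20.4% for CGB3. With windows of 150 bases it was 47.7% for CGB8, 36.3% for CGB5 and 47.3% for CGB3. CGB7 reached 83.5% at 50 bases, a share that rests on leaving out AC008687.7 and AC008687.8. The shares of CGB3 and CGB1 likewise leave out AC008687.1, and how far they depend on it was not measured. The share of CGB7 also counts 3384 windows from all its annotated transcripts, whereas its transcript compared with CGB8 has 918 bases. The share for that transcript alone was not measured. CGB2 reached 45.6% and CGB1 46.3%, while LHB (99.5%) and CGA (100.0%) were almost wholly distinct. In the transcript bases before the start codon CGB5 had 4 differences from CGB8 over 326 bases, CGB3 had 7 over 362 and CGB7 had 21 over 367.

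**Figure D1:**
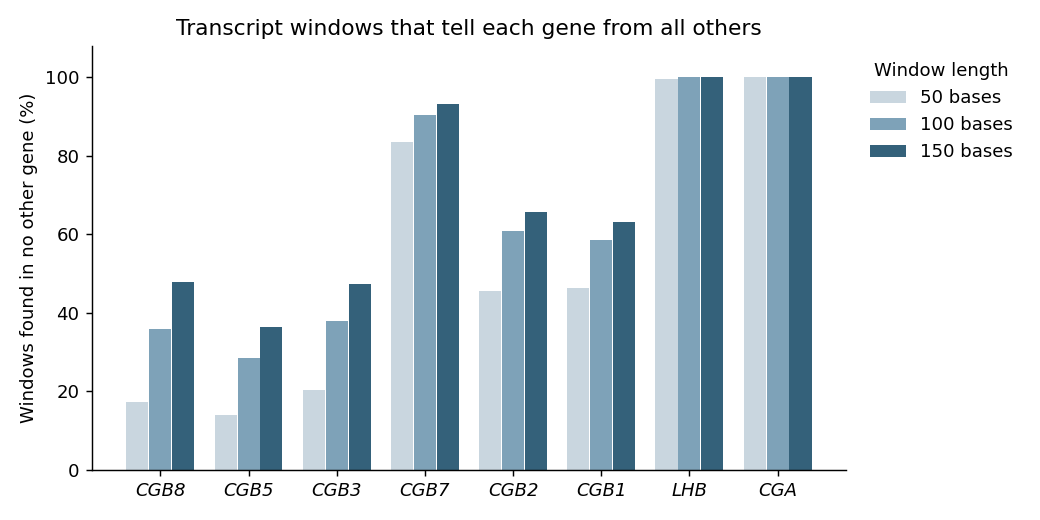
Share of transcript windows of 50, 100 and 150 bases (bars from 0, in percent) that occur in no other GENCODE gene, for each member. Windows come from all annotated transcripts of a gene. The overlapping genes AC008687.1, AC008687.7 and AC008687.8 were left out of the comparison. CGB8, CGB5 and CGB3 have the lowest shares, 14.0% to 20.4% at 50 bases, whereas LHB and CGA are nearly all unique.

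The annotation adds a second limit. On the same strand, AC008687.1 covers 47.4% of the exonic bases of CGB3 and 44.6% of those of CGB1, and AC008687.7 and AC008687.8 cover 52.2% of those of CGB7. No other gene overlaps the exons of CGB8, CGB5 or CGB2, and RUVBL2 on the other strand covers 2.54% of LHB. AC008687.1 and AC008687.7 were at 0 in all 10 libraries, and AC008687.8 had 3 counts in PBS replicate 5 and 0 in the rest. How reads that match several copies or several genes were counted is not given in the sources used here, so the split among copies is uncertain and the sum over the 6 beta genes is given beside it.

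CGB8 (ENSG00000213030, chromosome 19 from 49047638 to 49049106, minus strand) had the highest level of the members in both groups. It had 60, 87, 57, 44 and 69 counts in ADC replicates 1 to 5, against 188, 182, 150, 157 and 199 counts in PBS replicates 1 to 5. Every ADC library was below every PBS library. Scaled to the library totals (CPM, with TMM factors for composition), CGB8 averaged 1.94 ± 0.42 CPM in ADC and 5.50 ± 0.27 CPM in PBS libraries (SD, n = 5 each). The ADC mean was 35.3% of the PBS mean, a log2 fold change of -1.50 (SE 0.16). Within the groups the ADC libraries were more spread, with a coefficient of variation of 21.9% against 5.0% in PBS. Counting error is relatively larger at the lower ADC counts (44 to 87, against 150 to 199 in PBS), and its part in this spread was not tested.

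CGB8 was the only member whose groups did not overlap, 1 of the 5 members that passed the filter on low counts, while 6.95% of the 14504 genes tested had every ADC value below every PBS value. Its lower level in ADC libraries is the reason that the set was chosen, so nothing is read from this count. In bulk RNA, fewer cells that transcribe a gene and less RNA per cell cannot be told apart.

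**Figure D2:**
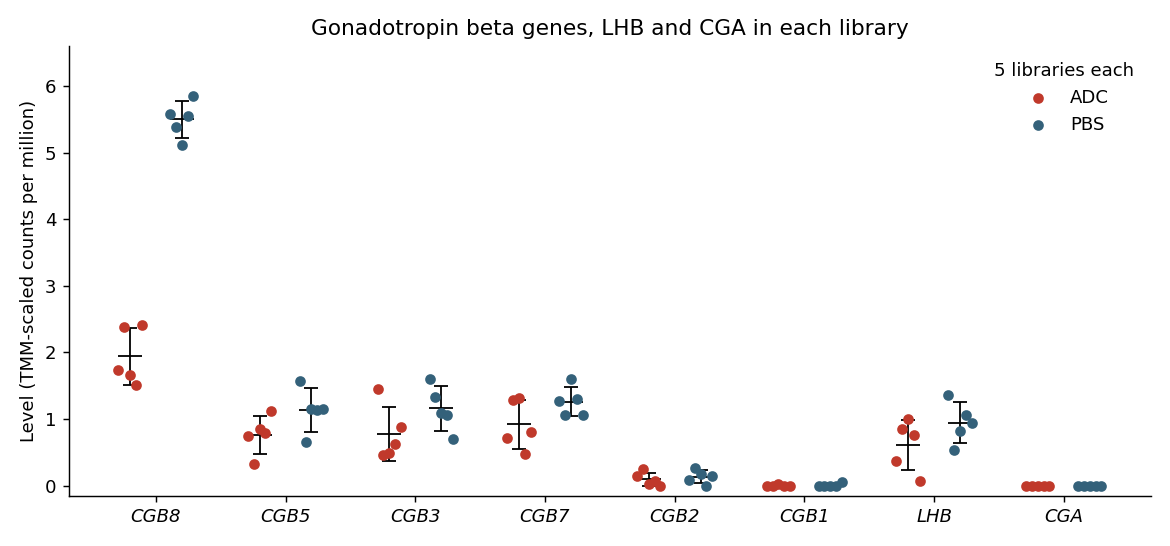
Level of each member in each library (points, TMM-scaled CPM), with the mean and SD of 5 libraries (black), ADC left of PBS. For CGB8 the ADC points lie at 1.51 to 2.42 and the PBS points at 5.11 to 5.85. For the other members the groups overlap.

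CGB5 (ENSG00000189052, chromosome 19 from 49043884 to 49045311, plus strand), whose coding sequence is that of CGB8, had 26, 12, 29, 23 and 32 counts in ADC and 53, 22, 34, 32 and 39 counts in PBS libraries. It averaged 0.767 ± 0.285 CPM in ADC and 1.13 ± 0.33 CPM in PBS libraries, with a log2 fold change of -0.57 (SE 0.35). The lowest PBS library, replicate 2, lay below 4 of the ADC libraries. CGB3 (ENSG00000104827, from 49022869 to 49024333, minus strand) had 50, 17, 17, 18 and 25 counts in ADC and 54, 45, 32, 30 and 24 counts in PBS libraries. It averaged 0.780 ± 0.405 CPM in ADC and 1.16 ± 0.33 CPM in PBS libraries, with a log2 fold change of -0.57 (SE 0.36). ADC replicate 1 was far above the other ADC libraries, and without it the log2 fold change was -0.92.

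CGB7 (ENSG00000196337, from 49054275 to 49058860, minus strand), whose coding part had 5 differences from that of CGB8, had 25, 47, 45, 14 and 23 counts in ADC and 43, 36, 47, 37 and 36 counts in PBS libraries. ADC replicates 2 and 3 were within the PBS range and the other ADC libraries below it. The averages were 0.921 ± 0.365 CPM in ADC and 1.26 ± 0.22 CPM in PBS libraries, a log2 fold change of -0.44 (SE 0.32). Without ADC replicate 4 it was -0.28. The means of CGB5, CGB3 and CGB7 were thus 67.8%, 67.3% and 73.0% of the PBS means, against 35.3% for CGB8, with standard errors of 0.32 to 0.36 on the log2 scale against 0.16 for CGB8.

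CGB2 (ENSG00000104818, from 49031912 to 49033238, plus strand) and CGB1 (ENSG00000267631, from 49035610 to 49036895, minus strand) are less well characterised beta genes. The CGB2 transcript has 489 coding bases with 12 differences from CGB8 (97.6% identity). CGB2 had 5, 9, 1, 2 and 0 counts in ADC and 3, 9, 5, 0 and 5 counts in PBS libraries, with no separation of the groups. CGB1 had 1 count in ADC replicate 3, 2 counts in PBS replicate 5 and 0 in the other 8 libraries. Neither passed the filter on low counts. A library with 0 counts allows up to 0.0819 to 0.106 CPM (3 counts, counting error only).

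LHB (ENSG00000104826, from 49015980 to 49017091, minus strand), which the pituitary gonadotropes use for luteinising hormone, had 13, 31, 34, 22 and 2 counts in ADC and 46, 18, 24, 30 and 32 counts in PBS libraries. ADC replicate 5 was lowest of all, and 3 of the ADC libraries lay within the PBS range. LHB averaged 0.608 ± 0.378 CPM in ADC and 0.944 ± 0.307 CPM in PBS libraries, a log2 fold change of -0.62 (SE 0.43), and of -0.34 without ADC replicate 5. CGA (ENSG00000135346, chromosome 6 from 87085498 to 87095406, minus strand), the partner without which no dimeric hormone forms, had 0 counts in all 10 libraries. Pooled over the 5 libraries of a group, 0 counts allow up to 0.0184 CPM in ADC and 0.0189 CPM in PBS. This bound treats counts as independent fragments, and it would be higher if read mates were counted singly.

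The summed beta genes are given because the copies are near-identical. The sum removes a split of reads among the 6 genes, but it would still change if a read was counted once for each matching copy, left out, or given to an overlapping gene, and which of these applies was not tested. The sum was 166, 172, 150, 101 and 149 counts in ADC and 341, 294, 268, 256 and 305 counts in PBS libraries, so that the groups did not overlap. In scaled units it averaged 4.51 ± 0.66 CPM in ADC and 9.20 ± 0.55 CPM in PBS libraries. The ADC mean was 49.1% of the PBS mean, a log2 fold change of -1.03 (SE 0.12). CGB8 carried much of this. Without CGB8 the sum of the other beta genes averaged 2.57 ± 0.43 CPM in ADC and 3.70 ± 0.58 CPM in PBS libraries, a log2 fold change of -0.52 (SE 0.17). For that sum the highest ADC value was 3.06 CPM and the lowest PBS value 3.12 CPM, while raw counts overlapped (57 to 106 in ADC, 99 to 153 in PBS). For CGB5 and CGB8 alone, the main copies whose exons no other annotated gene overlaps, the log2 fold change was -1.29 (SE 0.14). With LHB added to the 6 beta genes it was -0.98 (SE 0.11).

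**Figure D3:**
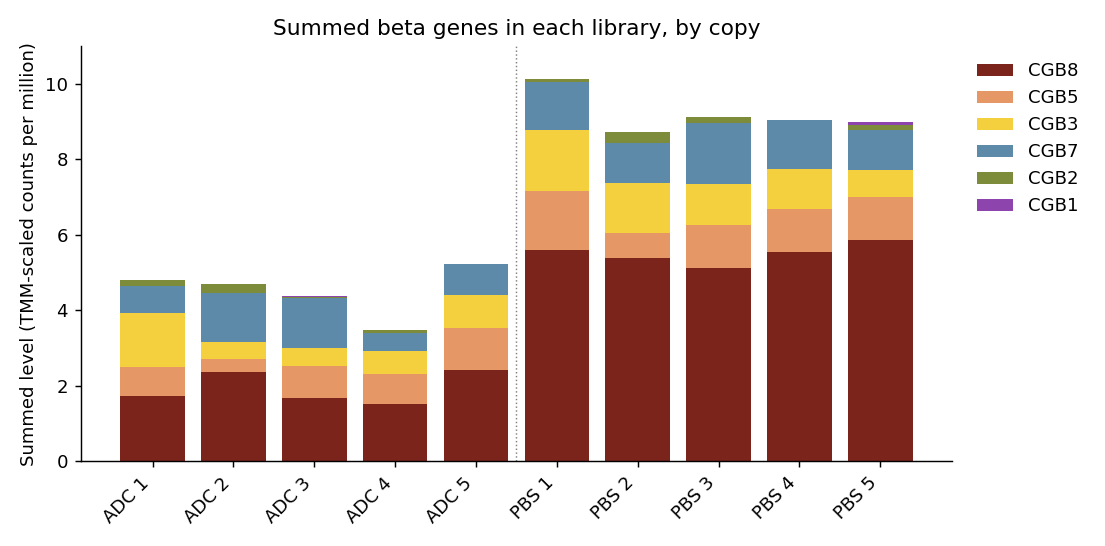
Summed level of the 6 beta genes in each library (stacked bars from 0, TMM-scaled CPM), split by copy, ADC libraries left of PBS libraries. The ADC bars reach 3.47 to 5.22 and the PBS bars 8.71 to 10.1, and the CGB8 segment differs most.

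The split of the summed counts also differed between the groups. CGB8 held 36.1%, 50.6%, 38.0%, 43.6% and 46.3% of the beta counts in ADC replicates 1 to 5, against 55.1%, 61.9%, 56.0%, 61.3% and 65.2% in PBS replicates 1 to 5. Every ADC share was below every PBS share. Pooled by group, CGB8 held 43.0% of the beta counts in ADC (exact 95% interval 39.3% to 46.6%) and 59.8% in PBS libraries (57.3% to 62.4%). The intervals are exact Clopper-Pearson limits, cover counting error only and take each count as a separate fragment. CGB7 took 20.9% in ADC and 13.6% in PBS, CGB3 17.2% in ADC and 12.6% in PBS, and CGB5 16.5% in ADC and 12.3% in PBS libraries. In single libraries the shares of these 3 copies overlapped between the groups. As the level of CGB8 chose the set, these shares are a description of the same contrast.

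Per kilobase of the deposited gene length, the order of levels was the same in both groups. In ADC libraries CGB8 had 2.20 ± 0.48 CPM per kilobase, LHB 0.965 ± 0.600, CGB5 0.912 ± 0.339, CGB3 0.889 ± 0.462, CGB7 0.272 ± 0.108, CGB2 0.114 ± 0.115 and CGB1 0.0071 ± 0.0158 (SD, n = 5). In PBS libraries CGB8 had 6.23 ± 0.31 CPM per kilobase, LHB 1.50 ± 0.49, CGB5 1.35 ± 0.39, CGB3 1.32 ± 0.38, CGB7 0.373 ± 0.065, CGB2 0.157 ± 0.115 and CGB1 0.0142 ± 0.0317. LHB, CGB5 and CGB3 differed by less than their spread in both groups. CGB8 stood above them by more than the spread. Per kilobase of exon that no other gene overlaps, CGB3 came to 1.69 CPM in ADC and 2.51 CPM in PBS libraries, above LHB (0.991 in ADC and 1.54 in PBS) and CGB5 but below CGB8. CGB7 came to 0.569 CPM in ADC and 0.779 CPM in PBS libraries. The place of CGB3 in the order therefore depends on whether overlapped bases yielded counts. The deposited length of CGB7 is 3386 bases, whereas its transcript compared with CGB8 above has 918. The low place of CGB7 therefore depends on which of its annotated bases are transcribed, which was not measured.

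Each beta gene has another annotated gene upstream of it on the same strand, which is NTF4, a neurotrophin gene, before CGB7 and an unprocessed pseudogene before the others. AC008687.6 (ENSG00000269706, unprocessed pseudogene, chromosome 19 from 49050217 to 49050846) lies 1111 bases before CGB8. It had 18, 9, 29, 8 and 16 counts in ADC and 35, 34, 40, 45 and 49 counts in PBS libraries, and every ADC library was below every PBS library. It averaged 0.490 ± 0.245 CPM in ADC and 1.29 ± 0.26 CPM in PBS libraries. This gene is no member of the set and was tested with edgeR's quasi-likelihood method. It fell, with a log2 fold change of -1.38 and an adjusted p of 0.0062 (SE 0.36). It was also called without each single library, with log2 fold changes of -1.68 to -1.21.

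NTF6A, which lies 1128 bases before CGB3, had 84, 69, 62, 73 and 39 counts in ADC and 93, 83, 59, 54 and 76 counts in PBS libraries. Its groups overlapped and it was not called (log2 fold change -0.19, SE 0.22, adjusted p = 0.60). The genes before CGB5 (AC008687.5), CGB2 (NTF6G), CGB1 (NTF6B) and CGB7 (NTF4) had at most 13 counts in any library and were not tested. Of the windows of 50 bases, 80.2% were unique for AC008687.6 and 43.1% for NTF6A, and of those of 150 bases 100.0% and 97.3% for the same genes. AC008687.4, an annotated protein-coding gene between LHB and CGB3, had 44, 35, 37, 38 and 22 counts in ADC and 42, 42, 57, 63 and 75 counts in PBS libraries. It had a log2 fold change of -0.71 (SE 0.27) and was not called (adjusted p = 0.062), although 4 of 18 alternative settings called it.

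**Figure D4:**
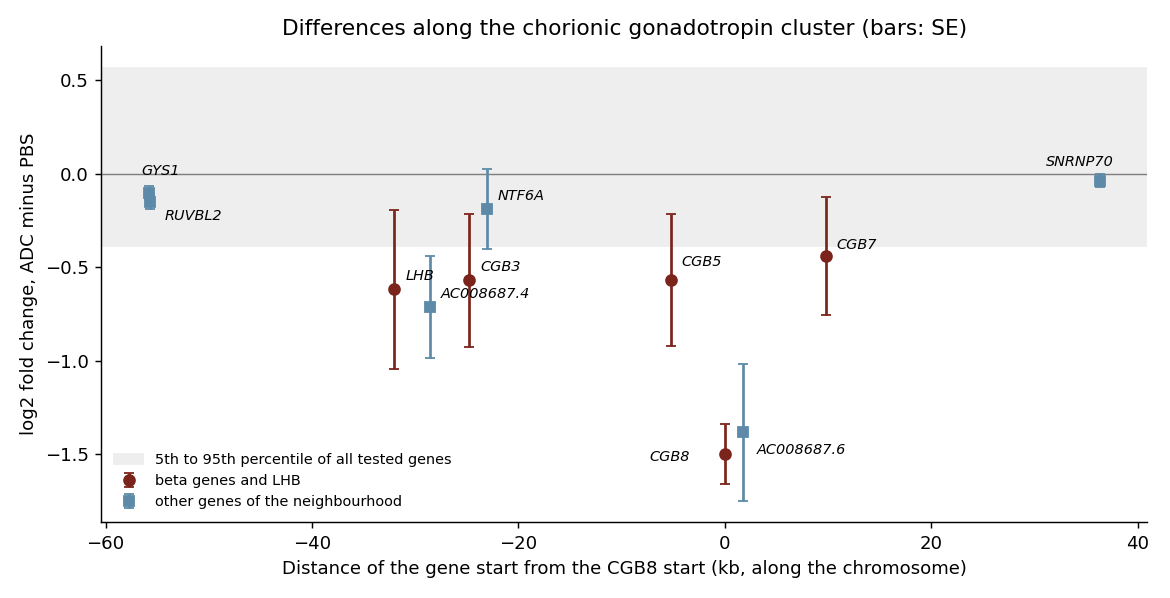
Log2 fold change (ADC minus PBS, with SE) of each tested gene whose start lies within the window drawn around CGB8, against the distance of its start from that of CGB8 in kilobases along the chromosome. The grey band spans the 5th to 95th percentile of all tested genes (-0.38 to 0.57). CGB8 (-1.50) and the pseudogene AC008687.6 beside it (-1.38) lie lowest, and RUVBL2, GYS1 and SNRNP70 on the flanks lie near 0.

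Within 250000 bases of the cluster the table held 38 other genes, of which 16 were tested, 3 rose, 4 fell and 9 were not called. Their median log2 fold change was 0.00025, against -0.0022 for all genes tested, of which 20.8% were called (1562 higher and 1456 lower). Among the nearest, the helicase subunit gene RUVBL2 fell by 0.15 (SE 0.04, adjusted p = 0.0071), the glycogen synthase gene GYS1 by 0.10 (SE 0.04, adjusted p = 0.043) and the ferritin light chain gene FTL by 0.19 (SE 0.03, adjusted p = 9.6e-05). The call of GYS1 was lost in 11 of 18 alternative settings. SNRNP70 (-0.04), the apoptosis effector BAX (0.04), PPFIA3 (0.26), LIN7B (0.29) and DHDH (0.55) were not called, with adjusted p of 0.11 to 0.68. NUCB1 rose by 0.21 (SE 0.06, adjusted p = 0.0062). The other genes that rose, PLEKHA4 (0.63) and TRPM4 (0.50), were named after their values were seen.

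A list of 42 transcription factors and cofactors was measured as possible regulators. Not all of them are known to act on beta gene promoters. Of the list 33 were tested, 6 rose, 5 fell and 22 were not called, with a median log2 fold change of 0.0097. Over all genes tested, 20.8% were called. This list, like the others, was chosen with earlier results of these data known. The early response factor EGR1, an activator of LHB in gonadotropes, rose by 0.85 (SE 0.08, adjusted p = 9.3e-10), with 27.8 ± 2.6 CPM in ADC and 15.4 ± 1.2 CPM in PBS libraries. TFAP2C, an AP-2 factor of trophoblast, rose by 0.50 (SE 0.11, adjusted p = 0.00086), with 14.4 ± 2.0 CPM in ADC and 10.3 ± 1.6 CPM in PBS libraries. ATF3 (0.55), PPARG (0.27), ETS2 (0.17) and the coactivator EP300 (0.15) also rose. EP300 lost its call in 6 and ATF3 in 2 of 18 alternative settings.

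ID1, an inhibitor of helix-loop-helix factors, fell by 0.74 (SE 0.06, adjusted p = 1.5e-10). CREB1, which binds the cAMP response element, fell by 0.23 (SE 0.05, adjusted p = 0.00052), with 54.4 ± 2.9 CPM in ADC and 63.7 ± 1.6 CPM in PBS libraries. CBFB (-0.22), JUN (-0.16) and TEAD4 (-0.13) fell as well. TFAP2A was low, at 0.397 ± 0.164 CPM in ADC and 0.485 ± 0.130 CPM in PBS libraries, and was not called (adjusted p = 0.68), nor was SP1 (log2 fold change -0.07, adjusted p = 0.22). GCM1, the trophoblast factor of syncytium formation, had 0 counts in all 10 libraries.

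Cyclic AMP and protein kinase A drive hormone gene transcription in trophoblast. Of 28 genes of this pathway 21 were tested, 3 rose, 3 fell and 15 were not called, with a median of 0.0095. For comparison, 20.8% of all genes tested were called. AKAP13 (0.34), PKIG (0.29) and the stimulatory G protein gene GNAS (0.14) rose, and AKAP12 (-0.23), the cyclase ADCY3 (-0.19) and PKIA (-0.12) fell. PKIA lost its call in 11 of 18 alternative settings. The kinase subunit PRKACA had 91.9 ± 4.0 CPM in ADC and 87.8 ± 2.1 CPM in PBS libraries and was not called (adjusted p = 0.26).

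Other glycoprotein hormone subunits (FSHB, TSHB, GPHA2 and GPHB5) and the receptors LHCGR, FSHR and TSHR had 0 counts in all 10 libraries. These 7 genes came from a list of 11 that also held the upstream regulators GNRH1, GNRHR, KISS1 and KISS1R. Of the list only KISS1, the kisspeptin gene, was tested, and it was not called (log2 fold change 0.33, adjusted p = 0.45). Of 51 trophoblast markers, 15 had 0 counts in every library, including the placental lactogen CSH1, the aromatase CYP19A1, HSD3B1 and HLA-G, and 16 were tested. Of these, GDF15 (1.53, SE 0.31), KRT7 (0.97), the pregnancy-associated protease PAPPA (0.85, SE 0.09) and TFPI2 (0.66, SE 0.04) rose, the integrin ITGA6 fell (-0.21, SE 0.04) and 11 were not called, with a median of -0.015. KRT7 lost its call in 2 of 18 alternative settings. The share called among all genes tested was 20.8%. Summed, the markers made 1323 to 1413 CPM in ADC and 1365 to 1414 CPM in PBS libraries. The largest parts of this sum were ITGA6 (319 CPM in ADC and 369 CPM in PBS), KRT18 (208 and 216) and VGLL3 (187 and 193). The PSG genes of the list had at most 18 counts in any library. The part of the markers in the result for CGB8 was not tested.

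Beta subunits are folded and glycosylated in the endoplasmic reticulum before secretion. Of 26 genes of this machinery 25 were tested, 5 rose, 2 fell and 18 were not called, with a median of 0.016. Among all genes tested 20.8% were called. MAN1A1 (0.30), PDIA5 (0.16), the chaperones HSP90B1 (0.16) and HSPA5 (0.10) and the protease FURIN (0.13) rose. The glucosyltransferase UGGT1 (-0.16) and calnexin, CANX (-0.09), fell. In the main fit all of these changes were smaller than the differences of CGB8, CGB5, CGB3 and CGB7. For CGB5 (-0.57, SE 0.35), CGB3 (-0.57, SE 0.36) and CGB7 (-0.44, SE 0.32) this order is uncertain. Leaving out 1 library moved CGB5 to as little as -0.37 and CGB3 to -0.42, and CGB7 was -0.28 without ADC replicate 4. As the set was chosen for the lower level of CGB8, nothing is read from this order. CANX lost its call in 6, FURIN in 4 and PDIA5 in 2 of 18 alternative settings.

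Among 9629 protein-coding genes with at least 5 CPM on average, the 5 whose centred log2 profile over the 10 libraries lay nearest to that of the summed beta genes were HSPA1A, HSPA1B, ID3, IGFBP3 and TXNIP. Their root mean square difference from the beta profile was 0.17 to 0.20 on the log2 scale, against a median of 0.54 over the candidates. HSPA1A had 31.6 ± 2.1 CPM in ADC and 59.8 ± 1.6 CPM in PBS libraries, and IGFBP3 had 89.4 ± 1.8 CPM in ADC and 156.3 ± 4.8 CPM in PBS libraries. HSPA1A and HSPA1B are near-identical copies themselves, so the split of counts between them is uncertain. Likeness here rests on the difference between the groups and says nothing of a shared control.

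Total counts ranged from 28262162 to 36463724 per library. Low values (2 to 21) were mostly even numbers, 65.4% to 67.3% of them per library, so mates of a pair may each have been counted and 2 counts can be 1 fragment. SSTR2, the antibody's target, was near the detection limit, with 10 to 20 counts in ADC and 3 to 22 counts in PBS libraries, and was not called (adjusted p = 0.50). Of 16 meningioma and arachnoid markers 7 were tested and 0 called, where 20.8% of all genes tested were called. VIM was abundant (3535 ± 67 CPM in ADC and 3395 ± 123 CPM in PBS libraries). FOXD1 had 227 ± 31 CPM in ADC and 254 ± 36 CPM in PBS libraries. NF2 (52.0 in ADC and 56.5 in PBS), TBX18 (22.7 and 22.5) and FOXC1 (17.4 and 19.7) were also expressed. MUC1 was low (0.701 in ADC and 0.351 in PBS). PGR, DES, S100B, SLC6A13 and ALDH1A2 had 0 counts in all libraries, and PTGDS and CDH1 at most 1. Of 15 leukocyte markers 9 had 0 counts in every library and only CSF1R was tested, at 2.10 ± 0.34 CPM in ADC and 1.26 ± 0.68 CPM in PBS libraries (adjusted p = 0.081). The leukocyte list summed to 2.05 to 3.01 CPM in ADC and 0.579 to 2.64 CPM in PBS libraries, and its part in the results was not tested.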

How the data were processed

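The authors deposited raw counts, as whole numbers, for 58735 genes. Per the submitters' processing notes, HISAT2, HISAT and TopHat2 were used, with no role given, on hg38. The sources used here do not name the counter, its strand setting or its rule for multi-mapped reads. Groups and replicate numbers come from the labels, which do not say that replicates were separate cultures, so the p-values reflect the spread among these libraries alone, and that spread may be technical. No 2 libraries of a group were alike within counting noise (chi-square over its degrees of freedom, 5.18 to 16.5).

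Counts were filtered with filterByExpr (minimum count 10, total 15), scaled with TMM and fitted with edgeR 4.0.16 (R 4.3.3), a two-sided quasi-likelihood test with Benjamini-Hochberg adjustment over 14504 genes and a threshold of 0.05. SEs were obtained from the fold change and the root of its F statistic. Sums of genes entered the fit as 1 row. Of the members 5 passed the filter. Members and lists were chosen with earlier results of these data known, so members carry no p. Named genes are the members, up to 6 called genes per list and direction, the 12 nearest tested neighbours, 11 listed genes and the 5 nearest profiles. Distances between profiles used log2 CPM with a pseudocount of 0.5. Exon overlaps and windows came from GENCODE 29, whose coordinates matched the table for all 14 genes checked, and promoters from RefSeq (GRCh38.p14), aligned with MAFFT 7.526. The fit was tested on simulated counts drawn independently for each gene and library. They held no singly counted mates and no reads shared among copies, so this test does not bear on those limits. DESeq2 1.42.0 and limma-voom 3.58.1 were alternatives, beside other scalings and filters, halved counts, a replicate block and each library left out.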

Additional observations from a re-analysis of the deposited data

Results flagged for a closer look

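In groups of 5 libraries, a library was singled out where its gap to the nearest other library took more than 0.71 of the group's range. Over 122 groups of members and named genes, chance alone gives about 1 such library in 20 groups. Among the members this named only CGB1, at 0.0292 CPM in ADC replicate 3 and 0.0588 CPM in PBS replicate 5, which stand for 1 and 2 counts beside libraries at 0.

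Among the named genes, HSP90B1 was low in ADC replicate 4 (723 CPM, others 755 to 763), UGGT1 was low in ADC replicate 5 (139 CPM, others 155 to 160) and GYS1 was high in ADC replicate 4 (105 CPM, others 98.8 to 100.5). HSPA1B was high in ADC replicate 5, at 31.6 CPM with the others at 25.1 to 26.4. In PBS libraries, BAX was high in replicate 2 (161 CPM, others 136 to 142), SP1 in replicate 1 (128 CPM, others 122 to 123) and SSTR2 in replicate 3 (0.749 CPM, others 0.0883 to 0.267).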

How the results depend on the processing

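The log2 fold change of the summed beta genes was -1.03 and stayed between -1.08 and -0.95 when any single library was left out. It moved to -0.52 without CGB8 and to -1.29 for CGB5 and CGB8 alone, a choice made after the data were seen. CGB8 stayed between -1.59 and -1.42 in 18 settings, CGB5 between -0.74 and -0.37, CGB3 between -0.92 and -0.42, CGB7 between -0.60 and -0.28 and LHB between -0.91 and -0.34. Over all genes, calls numbered 1311 to 1835 higher and 1067 to 1625 lower. Same-numbered libraries of the 2 groups showed no shared deviation (correlation of deviations -0.023 to 0.026 over 12422 genes). This does not tell whether they were handled as pairs, which the labels do not state. With the replicate number as a block the beta sum was -1.03. With that block 1 leukocyte marker and 1 meningioma marker rose and 1 meningioma marker fell. Genes of hormone folding that fell numbered 1 with library size alone or without a filter and 4 with DESeq2 or limma-voom. With library size alone 1 meningioma marker rose, without a filter 1 fell, and with limma-voom 1 leukocyte marker rose. Over the left-out libraries, hormone folding genes that rose numbered 3 to 6 and those that fell 1 to 3, trophoblast markers that fell 1 to 2, leukocyte markers that rose 0 to 1, and meningioma markers that rose 0 to 1 and fell 0 to 2. LIN7B, not called, ranged from -0.015 (without ADC replicate 1) to 0.64 (without PBS replicate 1). The cause of these shifts was not tested. AC008687.6, CGB5, CGB3 and LHB were left out by the filter of 1 CPM. Depth limits CGB2, CGB1 and CGA, and the split among copies rests on few distinguishing bases.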
